A study of Mus musculus with 15 samples.

Results

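The change of Arid5a enrichment with IL-17 is the difference between 2 enrichments, that of the Arid5a precipitate over the IgG precipitate after IL-17 and that of the Arid5a precipitate over the IgG precipitate in medium. It asks which transcripts came down with Arid5a more, or less, once the cells had met the cytokine, after subtracting what the IgG control did. The comparison takes all 15 of the 15 libraries of the study, chosen by their antibody and treatment labels. RNA immunoprecipitation followed by sequencing was done on ST2, a mouse stromal cell line. The 4 groups were mouse IgG2b in medium (4 libraries), anti-Arid5a in medium (4), mouse IgG2b with IL-17 (3, numbered 2, 3 and 4) and anti-Arid5a with IL-17 (4). IL-17 was given at 200 ng/mL for 3 h. Cells of every group were fixed with 1% formaldehyde, and DNase I and protease K were applied to the washed beads. All libraries are of 1 cell line. The labels do not say whether the numbered replicates came from separate cultures, so the tests measure the spread between these libraries, which may be technical. No library of unprecipitated RNA was analysed here, so a change in the RNA present in the cells is seen only through the IgG precipitate.

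Arid5a belongs to the AT-rich interaction domain family and is known as an RNA-binding protein that stabilises inflammatory mRNAs, among them those of Il6 and Stat3. It is held to do so by binding stem-loops that the endoribonuclease Regnase-1, encoded by Zc3h12a, would otherwise use to start their decay. IL-17 acts on stromal cells through NF-kB and C/EBP factors and through the stability of chemokine mRNAs, and it induces Arid5a in several cell types.

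Totals ran from 939139 to 5713913 counts per library. A transcript is said to have gained where the change of enrichment was above 0 and lost where it was below 0, at a Benjamini-Hochberg adjusted p below 0.05 over all 17835 genes tested. Levels are CPM (a library's counts scaled to a common total with TMM factors), and changes are log2 folds with the standard error (SE) of the fit. There were 155 gains (0.869% of the genes tested) and 19 losses (0.107%), and 2905 genes stood at an unadjusted p below 0.05. These calls rested on the scaling. TMM left the 5390 well-expressed genes (average log2 CPM of at least 5) at a median change of 0.34. When TMM factors were taken from those genes alone, their median was 0.00 and no transcript was called, with 2592 at an unadjusted p below 0.05 by edgeR and a smallest adjusted p of 0.0779. Upper-quartile factors and library totals also gave 0 calls each (2446 and 2527 at an unadjusted p below 0.05), while DESeq2 with its own size factors called 242 gained and 163 lost. No transcript was therefore called under all 5 scalings. Each gain below is best read against the shift of 0.34, and the value with factors from well-expressed genes is given beside the main one for called transcripts shown library by library. Counts of called list members can be set beside the 0.869% of all genes and the 2.82% of well-expressed genes that gained. The lists were chosen with earlier results of these data known, so such shares describe the calls and are not support.

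**Figure D1:**
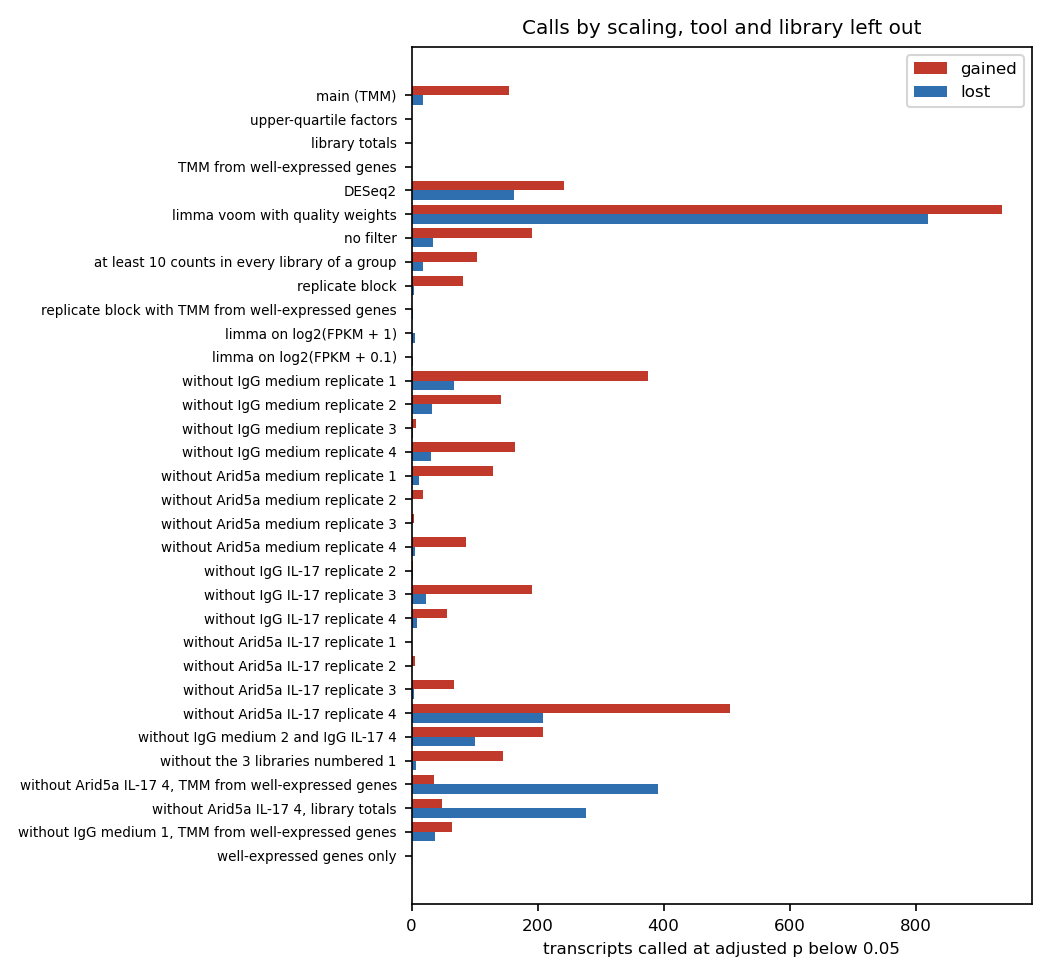
Number of transcripts called gained (red) and lost (blue) at an adjusted p below 0.05 under each scaling, tool, filter and set of libraries. The main fit gave 155 and 19, 3 other scalings gave 0 and 0, and leaving out Arid5a IL-17 replicate 4 gave 506 and 209.

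Single libraries also moved the calls. Without Arid5a IL-17 replicate 1 there were 0 calls (2239 at an unadjusted p below 0.05 by edgeR), and without replicate 2 of that group 5 gained and 0 lost. Without Arid5a medium replicate 3 there were 4 gains and 0 losses, and 19 and 1 without replicate 2. Without IgG medium replicate 3 there were 7 and 2, and without IgG IL-17 replicate 2 there were 2 and 3. Removing Arid5a IL-17 replicate 3 left 68 gains and 4 losses, and removing IgG IL-17 replicate 4 left 56 and 8. Removing Arid5a medium replicate 4 left 87 and 5. Removing IgG medium replicate 1 raised the counts to 376 and 67, and removing Arid5a IL-17 replicate 4 raised them to 506 and 209. The last library stood apart from its group in the summed receptor and neuronal gene transcripts described below. With factors from well-expressed genes, its removal gave 36 gains and 391 losses, of which 35 and 19 were among the 155 and 19.

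The change followed transcript level among the genes that passed the count filter. Its median was -1.03 over the 3142 genes with an average log2 CPM between 1 and 2, -0.36 over the 2911 between 3 and 4, 0.11 over the 2629 between 4 and 5, and 0.37 over the 2478 between 6 and 8. Factors from well-expressed genes gave -1.33, -0.66, -0.22 and 0.03 for the same steps, a rise of similar size about another zero. Genes at low levels passed the filter only where some group held counts, so the medians of the low steps are not support for a trend. Of the gains, 152 were among the well-expressed genes, and their median average log2 CPM was 7.37. The losses had a median of 2.32, and 2 of them were well-expressed. By RefSeq biotype, 153 of the 155 gains and 14 of 18 annotated losses were protein-coding, against 92.2% of all genes tested and 98.9% of the well-expressed ones. The gene models of the gains had a median length of 16669 bases and those of the losses of 8350 bases, while the median was 20214 over all genes tested and 29521 over the well-expressed ones.

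**Figure D2:**
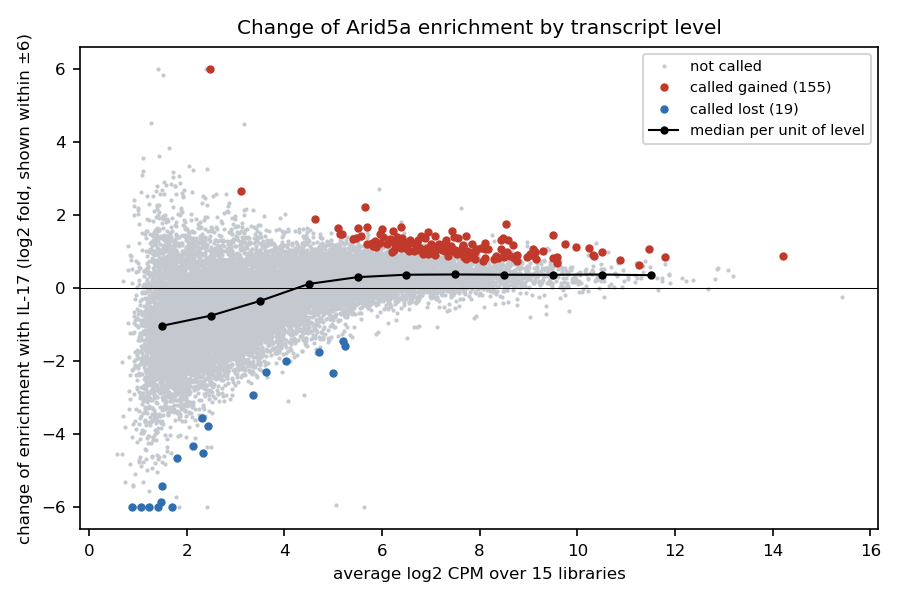
Change of Arid5a enrichment with IL-17 (log2 fold, TMM scaling) against the average log2 CPM over the 15 libraries, with 1 point per transcript and folds beyond 6 drawn at 6. The black line joins the median change in steps of 1 log2 CPM and rises from -1.03 at the lowest step shown to about 0.37 above 6, where most gains (red) lie, while losses (blue) lie mostly at the left. Genes at low levels passed the count filter only where some group held counts.

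Over the gains the median order of the precipitates turned. Their median log2 fold of Arid5a over IgG was -0.61 in medium (quartiles -0.78 and -0.50) and 0.46 with IL-17 (quartiles 0.36 and 0.63). Read the other way, their median change with IL-17 was 0.65 in the Arid5a precipitate and -0.48 in the IgG precipitate. The 19 losses ran the other way, with a median of 2.17 in medium and -1.64 with IL-17. These 4 differences share libraries with the change itself and with each other, so they describe the calls and do not test them. Under factors from well-expressed genes the medians for the gains were -0.43 in medium and 0.30 with IL-17. Over all genes tested, 10 were called higher (0.0561%) and 102 lower (0.572%) in the Arid5a than in the IgG precipitate in medium, and 10 higher (0.0561%) and 2 lower (0.0112%) with IL-17. Between conditions, 863 were called higher with IL-17 (4.84%) and 145 lower (0.813%) in the Arid5a precipitate, and 46 higher (0.258%) and 42 lower (0.235%) in the IgG precipitate.

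The chemokine mRNAs held Ccl7, which of the named genes kept its call most often when a library was left out. Ccl7 encodes a monocyte-attracting chemokine that IL-17 induces. In IgG medium libraries 1 to 4 it stood at 39.1, 83.1, 71.9 and 68.2 CPM, and in Arid5a medium libraries 1 to 4 at 35.2, 31.8, 34.9 and 31.1 CPM. With IL-17 it stood at 144, 168 and 167 CPM in IgG libraries 2 to 4 and at 262, 272, 225 and 200 CPM in Arid5a libraries 1 to 4. Every Arid5a library lay below every IgG library in medium and above every IgG library with IL-17. The change was 1.53 ± 0.26 (SE, adjusted p = 0.0148), made of -0.94 in medium and 0.59 with IL-17. It was called in 14 of the 15 fits that left out 1 library, the exception being Arid5a IL-17 replicate 1. The change was 1.19 under factors from well-expressed genes (adjusted p = 0.0779).

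Ccl9, a second CC chemokine of chromosome 11, gained too. Its levels in IgG medium were 118, 176, 222 and 125 CPM and in Arid5a medium 95.1, 92.5, 106 and 106 CPM. With IL-17 they were 113, 153 and 146 CPM in the IgG and 195, 188, 188 and 169 CPM in the Arid5a libraries. The order of the precipitates thus reversed without overlap, as for Ccl7, but the IgG libraries of Ccl9 overlapped between the conditions. The change was 1.11 ± 0.25 (adjusted p = 0.0223), and 0.76 with factors from well-expressed genes (adjusted p = 0.157). It was called in 9 of the 15 fits with a library left out.

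Ccl2, the neighbour of Ccl7 and a strong IL-17 target, did not pass. It rose with IL-17 from 62.6 ± 12.8 CPM (SD, n = 4) to 343 ± 110 CPM (n = 3) in the IgG and from 38.8 ± 5.20 CPM (n = 4) to 351 ± 40.2 CPM (n = 4) in the Arid5a precipitate. In medium the Arid5a libraries (31.0 to 41.7 CPM) lay below the IgG libraries (50.5 to 76.2 CPM), and with IL-17 the ranges overlapped. Its change was 0.70 ± 0.25 (adjusted p = 0.151). The neutrophil chemokine transcripts Cxcl1 and Cxcl5 stood at 0.47 ± 0.39 and 0.81 ± 0.67, and Cxcl12, the niche chemokine that ST2 cells make in abundance, at 0.69 ± 0.20 (adjusted p = 0.0785). Of 12 chemokine mRNAs tested out of 30 in the table, 2 gained (16.7%, against 2.82% of well-expressed genes) and 0 lost, and 6 lay above 0. Their median was 0.14, against -0.05 over all genes tested and 0.34 over the well-expressed ones, and it turned to -0.18 with factors from well-expressed genes.

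**Figure D3:**
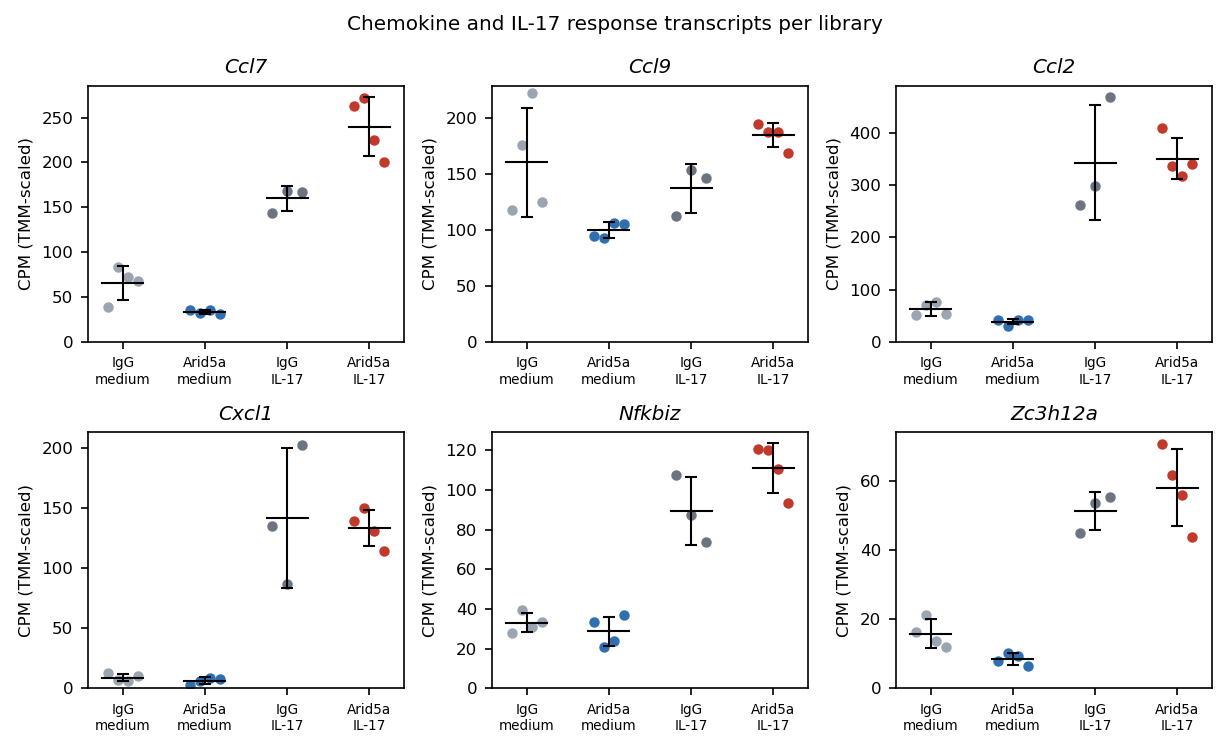
CPM per library (points), with the mean and SD of each group (bars), for 6 chemokine and IL-17 response transcripts. For Ccl7 and Ccl9 the Arid5a points lie below the IgG points in medium and above them with IL-17, and for the other 4 the ranges overlap in at least 1 condition.

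A chemokine promoter is shown because IL-17 acts on chemokine genes through NF-kB and AP-1 as well as through mRNA stability. It is that of Ccl9, since no promoter sequence was available for Ccl7. The IgG libraries of Ccl9 overlapped between conditions. In the IgG precipitate the fitted difference between IL-17 and medium was -0.22 for Ccl9 and 1.32 for Ccl7. The sequence is from RefSeq (GRCm38.p6, the assembly that mm10 names), chr11:83578587-83578886, minus strand, from 250 bases before to 50 after the start site, written 5′ to 3′. Capitals mark the matches to an AP-1-like pattern (TGANTCA, any base at N) and to an NF-kB motif (GGG, any 2 bases, TTTCC), each searched on both strands. The AP-1-like pattern is looser than the usual AP-1 site, which has G or C at N, and the marked stretch has A there.
Ccl9 promoter: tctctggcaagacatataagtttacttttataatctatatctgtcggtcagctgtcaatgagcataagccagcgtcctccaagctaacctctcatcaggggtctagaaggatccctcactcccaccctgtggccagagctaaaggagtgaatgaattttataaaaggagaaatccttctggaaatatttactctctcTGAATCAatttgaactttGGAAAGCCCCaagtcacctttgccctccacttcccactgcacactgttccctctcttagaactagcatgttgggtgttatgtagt
The AP-1-like match spans -53 to -47 and the NF-kB match, on the other strand, -35 to -26 from the start site, and they do not overlap. Of 32851 promoters of this length, 7.81% held the AP-1-like pattern and 1.63% the NF-kB motif. The matches describe these letters and say nothing of binding. The data hold RNA levels only.

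Of the transcripts reported elsewhere to bind Arid5a, 6 of 8 were tested, and 0 gained or lost (1 at an unadjusted p below 0.05 by edgeR; DESeq2 called 1 lost, Tbx21). Nfkbiz, an IkB-family regulator that IL-17 induces, stood at 28.0 to 39.3 CPM in IgG medium, 21.1 to 36.8 in Arid5a medium, 73.7 to 108 in IgG IL-17 and 93.4 to 121 in Arid5a IL-17 libraries. The precipitates overlapped in both conditions, and the change was 0.46 ± 0.29 (adjusted p = 0.424). Stat3, the transcription factor downstream of IL-6, stood at 0.42 ± 0.28, and Cebpb, a C/EBP factor that mediates IL-17 responses, at 0.57 ± 0.29. Both were near the shift of well-expressed genes, and with factors from those genes they stood at 0.08 and 0.23. Tbx21, the T-cell factor T-bet, was low, with 0 to 51 counts per library. It stood at 5.30, 0, 3.61 and 4.16 CPM in IgG medium and 7.82, 7.43, 9.64 and 8.03 CPM in Arid5a medium. With IL-17 it stood at 10.9, 10.2 and 7.18 CPM in the IgG and 1.47, 2.05, 3.83 and 2.55 CPM in the Arid5a libraries. Its precipitates did not overlap in either condition and changed order, with a change of -3.08 ± 0.84 (adjusted p = 0.0601). Il6 and Tnfrsf4, the 2 others of this list, reached no more than 8 and 12 counts in a library and were not tested.

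Among 16 tested IL-17-inducible genes of 28 in the table, Ccl7 alone gained (6.25%, against 2.82% of well-expressed genes) and 0 lost. The list's median was 0.49, or 0.16 under factors from well-expressed genes. Zc3h12a, which encodes Regnase-1, was at 1.04 ± 0.37 (adjusted p = 0.148), with 58.1 ± 11.3 CPM (n = 4) in the Arid5a and 51.4 ± 5.61 CPM (n = 3) in the IgG precipitate after IL-17. Cebpd was at 0.27 ± 0.38, and at -0.04 with factors from well-expressed genes. Lcn2 had at most 7 counts and was not tested. The Arid5a transcript itself averaged 15.7 ± 6.11 CPM in the IgG and 15.4 ± 4.10 CPM in the Arid5a precipitate of medium cells (n = 4 each). After IL-17 the averages were 22.1 ± 2.81 (n = 3) and 19.8 ± 12.1 CPM (n = 4), where replicate 4 held 37.1 and the others 10.3 to 19.1 CPM. Its change was -0.10 ± 0.54. Of 36 IL-17 receptor signalling genes 1 gained, the chaperone gene Hsp90aa1 (0.62 ± 0.16, adjusted p = 0.0435), the smallest fold among the gains, and of 37 immediate early and C/EBP factors 0 gained and 0 lost (9 at an unadjusted p below 0.05 by edgeR; DESeq2 called 0 gained and 2 lost). Among 60 mRNA decay and AU-rich element binding genes, Zfp36l2, which encodes a decay-promoting zinc finger protein, gained (0.90 ± 0.21, adjusted p = 0.0263), and the list's median was 0.30, or -0.04 under factors from well-expressed genes.

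Several gains were transcripts of the endoplasmic reticulum and its glycosylation machinery. The share that gained was 16.7% of oligosaccharyltransferase, 2.86% of dolichol pathway, 2.78% of translocon and signal peptidase and 6.45% of unfolded protein response genes. Among all well-expressed genes it was 2.82%, and the lists were chosen with earlier results of these data known. Oligosaccharyltransferase moves a preassembled glycan from dolichol to nascent secretory proteins. Rpn1, a subunit of that enzyme, stood at 260, 545, 662 and 514 CPM in IgG medium and 266, 179, 190 and 225 CPM in Arid5a medium. After IL-17 it held 218, 409 and 302 CPM in the IgG and 496, 471, 457 and 396 CPM in the Arid5a libraries. In IgG medium replicate 1 lay far below the other 3 and within the Arid5a range, and with IL-17 the highest IgG library overlapped the lowest Arid5a library. The change was 1.76 ± 0.32 (adjusted p = 0.0149), and 1.42 with factors from well-expressed genes (adjusted p = 0.139).

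Ostc, a further subunit, stood at 63.1, 97.7, 125 and 102 CPM in IgG medium and 58.6, 44.2, 47.6 and 60.3 CPM in Arid5a medium, without overlap. With IL-17 it stood at 36.8, 65.8 and 60.8 CPM in the IgG and 112, 93.0, 81.9 and 61.7 CPM in the Arid5a libraries, where Arid5a replicate 4 lay within the IgG range. The change was 1.56 ± 0.31 (adjusted p = 0.0149), and 1.22 under factors from well-expressed genes (adjusted p = 0.126). All 12 oligosaccharyltransferase transcripts lay above 0 in the TMM fit, of which 2 gained, with a median of 0.40. That median is close to the shift of well-expressed genes and became 0.06 with factors from them.

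Alg8, a glucosyltransferase of the dolichol pathway, had the largest fold of the gains after Gm32687 (2.65 ± 0.69, adjusted p = 0.0473). It was low, with 6 to 54 counts per library. Its IgG libraries held 6.74 to 13.1 CPM in medium and 2.80 to 4.50 CPM with IL-17, and its Arid5a libraries 3.91 to 5.70 and 9.76 to 11.8 CPM, with no overlap in either condition. It was called in 3 of the 15 fits with a library left out. It was the only gain of 35 dolichol pathway genes, whose median of 0.18 turned to -0.15 with factors from well-expressed genes. Spcs1, a signal peptidase subunit, gained (1.32 ± 0.29, adjusted p = 0.0223; 1 of 36 translocon and signal peptidase genes). So did Selenos, a selenoprotein of ER-associated degradation (1.40 ± 0.33), and the disulfide isomerase gene Pdia3 (0.82 ± 0.20), the 2 gains of 31 unfolded protein response and folding genes. P4ha1, a collagen prolyl hydroxylase of the same compartment, gained by 1.02 ± 0.23 (adjusted p = 0.0223). It was the only gain of 37 matrix glycoprotein and crosslinking genes, while of 42 collagens 0 gained and 0 lost (6 at an unadjusted p below 0.05 by edgeR; 0 called by DESeq2).

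Vti1b, a SNARE of endosomal and Golgi traffic, was called in 12 of the 15 fits with a library left out. It stood at 156, 253, 336 and 220 CPM in IgG medium and 171, 100, 114 and 150 CPM in Arid5a medium. With IL-17 it stood at 93.6, 150 and 105 CPM in the IgG and 213, 170, 170 and 210 CPM in the Arid5a libraries. The precipitates overlapped in medium through IgG replicate 1 and did not overlap with IL-17. The change was 1.56 ± 0.28 (adjusted p = 0.0149), and 1.23 under factors from well-expressed genes (adjusted p = 0.133). The fitted difference between IL-17 and medium was -1.05 in the IgG and 0.51 in the Arid5a precipitate. Vti1b overlaps the model of Arg2, so reads of that gene could be counted with it.

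**Figure D4:**
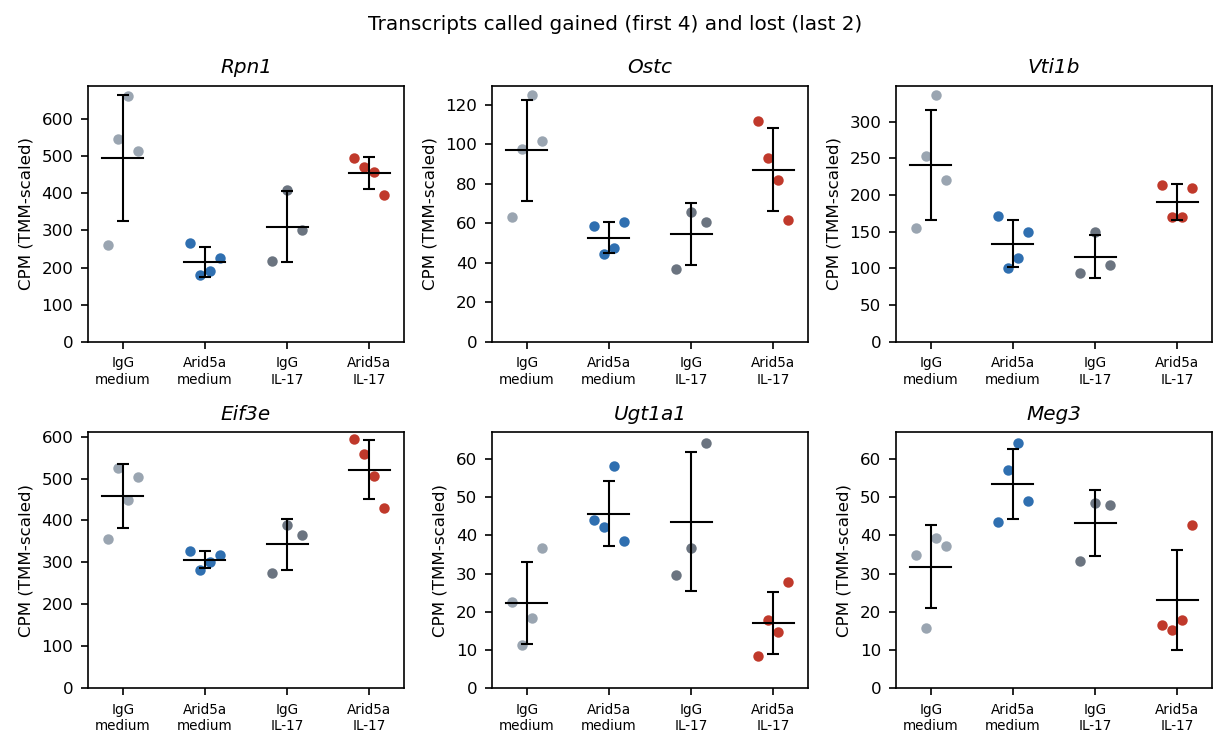
CPM per library (points), with the mean and SD of each group (bars), for 4 transcripts that gained (Rpn1, Ostc, Vti1b, Eif3e) and 2 that lost (Ugt1a1, Meg3). In the gains the Arid5a mean lies below the IgG mean in medium and above it with IL-17, and in the losses the order is the reverse.

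Further gains were transcripts of the translation and protein quality apparatus. Of initiation and elongation factors 5.80% gained and of ribosomal protein mRNAs 1.16%, against 2.82% of well-expressed genes. Eif3e, a subunit of initiation factor 3, stood at 356, 524, 449 and 505 CPM in IgG medium and 327, 282, 301 and 317 CPM in Arid5a medium. After IL-17 the levels were 275, 390 and 367 CPM in the IgG and 594, 557, 506 and 429 CPM in the Arid5a libraries. The precipitates did not overlap in either condition. The change was 1.18 ± 0.21 (adjusted p = 0.0148), called in 13 of 15 fits with a library left out, and 0.84 with factors from well-expressed genes (adjusted p = 0.103). Eif4e, the cap-binding protein (1.21 ± 0.29), Eif1a (1.06 ± 0.25) and Eif2s2, the beta subunit of initiation factor 2 (1.01 ± 0.25), were the other gains of 69 initiation and elongation factors. The list's median was 0.33, and -0.01 with factors from well-expressed genes. Of 86 ribosomal protein mRNAs 1 gained, Rpl35 (1.20 ± 0.24, adjusted p = 0.0149), and 63 lay above 0. Their median of 0.23 was below that of the well-expressed genes and turned to -0.11 with factors from them.

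The prefoldin and chaperonin list had the highest median of the 31 lists in the TMM fit, 0.53, with 30 of 31 members above 0. It held 4 gains (12.9%, against 2.82% of well-expressed genes). These were Pdrg1, a small prefoldin-like protein (1.67 ± 0.38), the chaperonin subunit gene Tcp1 (0.69 ± 0.17), the mitochondrial chaperonin gene Hspd1 (0.78 ± 0.20) and Hsp90aa1. Hsp90aa1 encodes a chaperone of another family, so the list is wider than its name. Factors from well-expressed genes left the median above 0, at 0.20. In medium Pdrg1 stood at 66.0 to 219 CPM in the IgG and 42.8 to 58.5 CPM in the Arid5a libraries, and with IL-17 at 58.2 to 82.7 and 53.2 to 95.4 CPM. The ranges were apart in medium and overlapped with IL-17. Of 48 proteasome genes 3 gained (6.25%, against 2.82% of well-expressed genes). They were the assembly factor gene Psmg4 (1.67 ± 0.35) and the regulatory particle genes Psmd6 (1.19 ± 0.26) and Psmd1 (0.93 ± 0.21), with adjusted p from 0.0185 to 0.0259. The median of the list was 0.34, that of the well-expressed genes.

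Of 78 nuclear-encoded oxidative phosphorylation genes 7 gained (8.97%, against 2.82% of well-expressed genes) and 0 lost, with a median of 0.48. Cox7b, a subunit of cytochrome oxidase, stood at 200 to 256 CPM in IgG and 164 to 220 CPM in Arid5a medium, and at 177 to 254 and 301 to 341 CPM with IL-17. The precipitates overlapped in medium and not with IL-17, and the change was 0.98 ± 0.21 (adjusted p = 0.0208). Uqcrb, of complex III (1.41 ± 0.28), Ndufb4c, annotated as a complex I subunit (1.38 ± 0.28), and Atp5a1, of ATP synthase (0.89 ± 0.20), were further gains. The list's median was 0.15 under factors from well-expressed genes. Among 25 housekeeping mRNAs, Ywhaz (1.11 ± 0.21), Ppia (1.06 ± 0.20) and Hprt (1.07 ± 0.27) gained, and the median was 0.46, or 0.11 under factors from well-expressed genes. Actb (0.52 ± 0.17, adjusted p = 0.123) and Gapdh (-0.18 ± 0.19) were not called, so genes often used as references differed in their calls. Nsa2, a ribosome biogenesis factor whose transcript was higher in the Arid5a precipitate in each condition, stood at 0.35 ± 0.23 (adjusted p = 0.451), and at 0.04 with factors from well-expressed genes.

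Mitosis and centromere genes held 3 gains among 50, with a median of 0.44, or 0.10 under factors from well-expressed genes. Cenpm, a kinetochore protein gene, had the largest fold (1.89 ± 0.49, adjusted p = 0.0473; 1.52 and 0.180 under factors from well-expressed genes). It stood at 17.4, 58.4, 50.9 and 17 CPM in IgG medium and 19.9, 22.3, 28.6 and 21.8 CPM in Arid5a medium. With IL-17 it stood at 12.6, 9.46 and 9.57 CPM in the IgG and 31.0, 30.3, 21.6 and 23.8 CPM in the Arid5a libraries. IgG medium libraries 2 and 3 lay well above all others, and the separation of the precipitates was seen with IL-17 only. Birc5, which encodes survivin (1.15 ± 0.24), and Tacc3, a spindle protein gene (1.04 ± 0.26), were the others. Tacc3 stood at 107 ± 15.9 and 106 ± 12 CPM (n = 4 each) in the Arid5a precipitate in medium and with IL-17, and at 219 ± 71.1 (n = 4) and 104 ± 7.84 CPM (n = 3) in the IgG precipitate. Of the 4 groups, only IgG medium stood apart in its mean. Of 42 replication genes 0 gained and 0 lost (11 at an unadjusted p below 0.05 by edgeR; 0 called by DESeq2), and of 59 replication-dependent histone genes H2bc3 gained (adjusted p = 0.0331), with 208 ± 69.5 CPM in IgG and 129 ± 25.5 CPM in Arid5a medium (n = 4 each) and 156 ± 53.7 (n = 3) and 249 ± 48.5 CPM (n = 4) with IL-17.

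The other gains with the largest folds were Zmynd19 (2.23 ± 0.45), Pithd1 (1.64 ± 0.39), the transporter-family gene Mfsd14a (1.64 ± 0.36), Prr13 (1.61 ± 0.35), Pdcd6, a calcium-binding protein gene (1.49 ± 0.35), the mitophagy receptor gene Bnip3 (1.48 ± 0.38) and Ttc1 (1.47 ± 0.33). Their adjusted p lay between 0.0202 and 0.0435. For Zmynd19, IgG medium replicate 2, the library with the fewest counts, held 131 CPM and the other 3 held 33.8 to 65.7. The Arid5a libraries of Zmynd19 held 22.7 to 33.9 CPM in medium and 56.7 to 73.9 CPM with IL-17. Without IgG medium 2 and IgG IL-17 4 together, 208 transcripts gained and 101 lost. Gm32687, a predicted gene, had no count in the 3 IgG libraries with IL-17, held 4.81 to 10.1 CPM in their Arid5a counterparts, and gained (adjusted p = 0.0149). It held 4.49 to 10.5 CPM in IgG medium and 0 to 6.47 CPM in Arid5a medium. No fold is given, since the fitted one depends on the prior count.

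The 28 long noncoding RNAs tested held 2 gains (7.14%), Malat1 and Neat1, and 1 loss (3.57%), Meg3. Over all genes tested the shares were 0.869% and 0.107%, and over well-expressed genes 2.82% and 0.0371%. Malat1, an abundant nuclear RNA, stood at 16669 to 22101 CPM in IgG and 10877 to 16145 CPM in Arid5a medium, and at 17581 to 20051 and 21163 to 26093 CPM with IL-17. Its precipitates did not overlap in either condition and changed order, with a change of 0.86 ± 0.17 (adjusted p = 0.0149). Its change was 0.54 under factors from well-expressed genes (adjusted p = 0.141). Neat1, the scaffold of paraspeckles, was at 0.77 ± 0.18 (adjusted p = 0.0314). Meg3, an imprinted RNA, stood at 34.9, 15.7, 39.4 and 37.1 CPM in IgG medium and 43.3, 57.0, 64.1 and 48.9 CPM in Arid5a medium. After IL-17 it held 33.2, 48.3 and 47.9 CPM in the IgG and 16.6, 15.3, 17.8 and 42.8 CPM in the Arid5a libraries. Arid5a IL-17 replicate 4 lay within the IgG range, and the other 3 lay far below it. The change was -1.60 ± 0.41 (adjusted p = 0.0435), and -1.88 under factors from well-expressed genes (adjusted p = 0.139).

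Of the 19 losses, 7 were olfactory or vomeronasal receptor genes, which sensory neurons use, 2 were neuronal genes and 1 a protocadherin. These receptor genes made up 695 of the 17835 genes tested. Losses were 0.107% of all genes tested and 0.137% of genes below the well-expressed threshold. Ugt1a1, a glucuronosyltransferase of liver, was among the named losses the one called most often with a library left out (11 of 15 fits). It stood at 22.5, 11.2, 18.4 and 36.8 CPM in IgG medium and 44.0, 42.1, 58.1 and 38.6 CPM in Arid5a medium. After IL-17 it held 29.8, 36.8 and 64.1 CPM in the IgG and 8.39, 17.8, 14.7 and 27.7 CPM in the Arid5a libraries. The precipitates did not overlap in either condition, and the change was -2.31 ± 0.46 (adjusted p = 0.0149), or -2.59 under factors from well-expressed genes (adjusted p = 0.0779). It lies in a cluster of Ugt1a genes that share exons, so its counts may include those of its neighbours. Cdh4 (-2.30 ± 0.59), a cadherin of retina and brain, Ppm1h, a phosphatase gene (-1.99 ± 0.50), and the transcription cofactor gene Eny2 (-1.45 ± 0.33) lost too. Cdh4, Ppm1h and Eny2 overlap other gene models, as do, among the called genes above, Rpn1, Bnip3, Spcs1, Pdia3, Psmd1, Rpl35, Eif4e, Tcp1, Hspd1, Ndufb4c, Atp5a1, Ywhaz, Malat1, Meg3 and Gm32687. Gpr101, an orphan receptor gene (-3.57 ± 0.92), and Pcdhga9, of the gamma protocadherin cluster with shared exons (-2.94 ± 0.72), had 1 to 38 and 0 to 64 counts per library.

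Of 695 tested olfactory and vomeronasal receptor genes, 7 lost (1.01%) and 0 gained, and 586 lay below 0 with a median of -1.21. Among 40 neuronal and synaptic genes 2 lost (5.00%), 38 lay below 0 and the median was -1.25. Among 56 clustered protocadherins 1 lost (1.79%) and 51 lay below 0 (median -0.89). Of 22 epithelial and endothelial markers 0 lost and 18 lay below 0 (3 at an unadjusted p below 0.05 by edgeR, 0 called by DESeq2). Genes at these levels passed the count filter only where some group held counts, so these counts and medians are not support. Vmn2r109, a vomeronasal receptor gene, held 0 to 1.44 CPM in IgG medium, 2.93 to 7.83 in Arid5a medium, 7.49 to 12 in IgG IL-17 and 1.91 to 3.96 CPM in Arid5a IL-17 libraries, with a change of -4.52 ± 0.97 (adjusted p = 0.0208). Olfr1385 (-3.79 ± 0.94), Vmn1r58 and Olfr9 lost as well, the last 2 with at most 3 and 1 counts in any IgG medium library.

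Summed over all 1485 olfactory and vomeronasal receptor genes in the table, whatever their counts, levels were 2156, 2004, 1979 and 3077 CPM in IgG medium and 3224, 4080, 4759 and 3287 CPM in Arid5a medium. With IL-17 they were 3361, 3237 and 2359 CPM in the IgG and 1672, 1801, 1404 and 4048 CPM in the Arid5a libraries. In medium every Arid5a library lay above every IgG library, and with IL-17 Arid5a replicates 1 to 3 lay below every IgG library while replicate 4 lay above them. The 40 neuronal genes summed to 363 to 427 CPM in IgG medium, 508 to 652 in Arid5a medium and 523 to 563 in IgG IL-17. They summed to 269 to 299 CPM in Arid5a IL-17 replicates 1 to 3, below every IgG library with IL-17, and to 543 CPM in replicate 4, within the IgG range. The share of counts on genes below the well-expressed threshold ran from 10.8% to 13% in IgG medium, 13.5% to 15.7% in Arid5a medium and 11.2% to 13% in IgG IL-17. It was 9.42% to 9.88% in Arid5a IL-17 replicates 1 to 3 and 13.3% in replicate 4. These shares move with the losses and with the 0.34 shift of the well-expressed genes, and their part in the calls was not tested.

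The markers of the cell line were present in every group. The 23 stromal markers summed to 18160 to 25530 CPM per library, while 25 haematopoietic markers summed to 21.9 to 56.7 CPM and 24 epithelial and endothelial markers to 43.6 to 166 CPM. Haematopoietic markers held 51.0 to 55.7 CPM in Arid5a medium and 21.9 to 35.4 CPM in Arid5a IL-17 libraries, against 32.6 to 56.7 and 32.8 to 41.2 CPM in the IgG libraries. With IL-17, Arid5a replicates 1 to 3 (21.9 to 25.6 CPM) lay below every IgG library and replicate 4 (35.4 CPM) within their range. Epithelial and endothelial markers held 128 to 154 CPM in Arid5a medium and 43.6 to 113 CPM in Arid5a IL-17 libraries. The IgG libraries held 84.1 to 166 CPM in medium and 101 to 123 CPM with IL-17. With IL-17, Arid5a replicates 1 to 3 (43.6 to 66.1 CPM) again lay below every IgG library and replicate 4 (113 CPM) within their range. In medium the precipitates overlapped for both lists. The part of these markers in the calls was not tested. Of 10 haematopoietic markers tested 0 were called by edgeR (2 at an unadjusted p below 0.05; 1 lost by DESeq2). Of the stromal list 0 gained and 0 lost (4 at an unadjusted p below 0.05 by edgeR; 0 called by DESeq2). Of 24 activin, BMP and TGF-beta genes 0 were called by edgeR (7 at an unadjusted p below 0.05; 2 gained by DESeq2), and of 25 small nucleolar and Cajal body RNAs 0 were called (1 at an unadjusted p below 0.05; 0 by DESeq2). Of 689 predicted Gm genes 2 gained (Gm32687 and Gm4737) and 1 lost (Gm10845), with a median of -0.87.

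**Figure D5:**
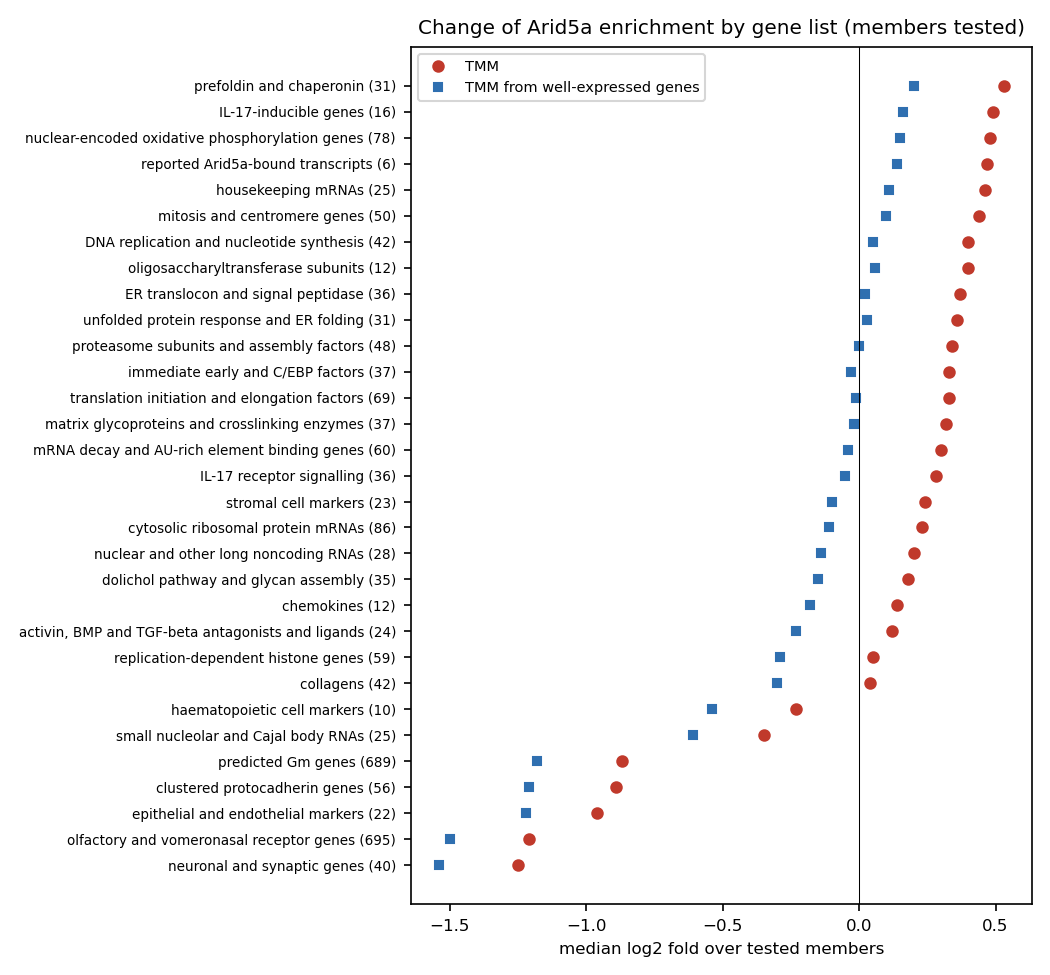
Median change of enrichment over the tested members of each of the 31 gene lists (number tested in parentheses), with TMM factors (circles) and with TMM factors from well-expressed genes (squares). With TMM the medians run from -1.25 (neuronal and synaptic genes) to 0.53 (prefoldin and chaperonin), and with the other factors from -1.54 to 0.20 for the same lists, so each list moves down with the second scaling.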

How the data were processed

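RNA from Arid5a and IgG immunoprecipitates of ST2 cells was analysed from 2 tables for 25239 genes. The authors deposited expected counts, which are not whole in 2.66% to 10.3% of the values of a library, and FPKM. Per the submitters' processing notes, STAR 2.7.9, RSEM 1.3.1, DESeq2 1.36.0, R 4.3.0 and mm10 were used; annotation, filters and strand setting are not given in the sources used here. Counts were rounded and fitted in R 4.3.3 with edgeR 4.0.16 (filterByExpr by group, TMM, robust quasi-likelihood, 4 group means, 17835 genes); every p of a single gene is from edgeR unless another tool is named. SE is the fold over the square root of F. Symbols matched RefSeq GRCm38.p6 for 99.64% of genes.

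Genes were named by rule: the 15 largest gains and 10 largest losses among calls whose average log2 CPM reached 2 and whose symbol is no Gm or Rik name, up to 4 called members of each of 31 lists by p, genes called under all 5 scalings (0), and 18 fixed genes. The members and lists were chosen with earlier results of these data known. Alternatives were other scalings, DESeq2 1.42.0, limma 3.58.1 (voom, and log2(FPKM + 1) or log2(FPKM + 0.1)), filters, the replicate number as a block and libraries left out.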

Additional observations from a re-analysis of the deposited data

Results flagged for a closer look

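The change with IL-17 differed between the Arid5a and the IgG precipitate, by the test of the difference itself, for 155 transcripts that gained and 19 that lost in the TMM fit. They are described above with the scalings under which no transcript was called.

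A library far from the other 3 of its group was found in 7 of 205 groups of 4 libraries examined over the 74 named genes (groups with under 10 counts in every library were left out), where chance gives about 1 in 20. Arid5a IL-17 replicate 4 was high for Meg3 (42.8 CPM) and Gpr101 (5.10 CPM). Arid5a medium replicate 2 was low for Mfsd14a (24.0 CPM) and Ccl2 (31.0 CPM). Arid5a medium replicate 3 was low for Ppm1h (16.9 CPM) and replicate 4 high for Cox7b (220.4 CPM). IgG medium replicate 3 was high for Gm32687 (10.5 CPM).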

How the results depend on the processing

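Transcripts gained and lost, 155 and 19 with TMM, numbered 0 and 0 with upper-quartile factors, with library totals, with TMM from well-expressed genes, and in a fit of those 5390 genes alone (697 at an unadjusted p below 0.05 by edgeR). They numbered 242 and 163 with DESeq2, 938 and 820 with voom, 191 and 34 without a filter, and 104 and 19 when all libraries of at least 1 group had to hold 10 counts. On log2(FPKM + 1) they were 0 and 6, and on log2(FPKM + 0.1) 0 and 2. Leaving out 1 library gave 0 to 506 gains and 0 to 209 losses. They were 208 and 101 without IgG medium 2 and IgG IL-17 4, and 146 and 7 without the 3 libraries numbered 1. With Arid5a IL-17 4 left out they were 36 and 391 with TMM from well-expressed genes and 48 and 277 with library totals. Without IgG medium 1 and with TMM from well-expressed genes they were 64 and 38. The fits without Arid5a IL-17 4 by library totals, without IgG medium 1 by well-expressed genes, and of well-expressed genes alone were chosen after seeing the data.

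With the replicate number as a block there were 81 gains and 4 losses, and 0 and 2 with the block and TMM from well-expressed genes. The labels do not say whether the numbers pair the libraries. Deviations from the group means correlated over 0.1 in 1 of 21 same-numbered pairs and 7 of 63 other pairs. The medians were -0.01 and 0.00, and the largest correlations 0.20 and 0.16.

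The called named genes changed sign under none of the alternatives run. Uncalled genes that changed sign were Arid5a (-0.59 to 0.11 with a library left out, above 0 in 5 of 15 such fits, 0.12 without IgG medium 2 and IgG IL-17 4), Gapdh (0.01 in the latter fit) and Nsa2 (-0.21 and -0.16 without Arid5a IL-17 4, with TMM from well-expressed genes and library totals). Cebpd stood at -0.18 and -0.13 in those 2 fits, -0.01 with library totals, -0.04 with TMM from well-expressed genes and -0.05 in the fit of these genes alone. Cxcl5 ranged from -0.16 (without IgG medium 1) to 1.16 with a library left out, and was at -0.24 without libraries numbered 1 and -0.49 without IgG medium 1 with TMM from well-expressed genes. Cxcl1 was at -0.06 and -0.10 in the last 2 of these fits, and Stat3 at 0.00 in the last. The causes were not tested. Depth limits the genes at few counts.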
